A study of Mus musculus with 10 samples.

Results

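The comparison asks whether CpG methylation changed DNA binding by 2 mutant bZIP domains to a different extent, and whether any such difference was tied to the CG dinucleotide. It used 8 of the 10 protein binding microarrays of the series, 2 in each of 4 groups: CEBPB(V285A) on unmethylated and on methylated DNA, and CREB1(A297V) on unmethylated and on methylated DNA. Its members are all 32896 8-mers of the authors' matrix (an 8-mer is counted together with its reverse complement), of which 12547 held at least 1 CG and 20349 held none. For each 8-mer the methylation response of a protein is its mean on the methylated arrays minus its mean on the unmethylated arrays, and the response difference is the response of CEBPB(V285A) minus that of CREB1(A297V). A negative response difference therefore means that CEBPB(V285A) lost more, or gained less, on methylated DNA than CREB1(A297V) did.

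Both proteins are DNA-binding domains of mouse origin that carry an N-terminal GST tag and were made without cells, in a coupled transcription and translation kit. Each has 1 exchanged residue, valine to alanine in CEBPB and alanine to valine in CREB1. The double-stranded arrays were used as made or after treatment with M.SssI, an enzyme that methylates the cytosine of CG dinucleotides, and bound protein was read in the Cy5 channel. Full-length proteins, partner proteins and chromatin are absent from such an assay, and neither wild-type CEBPB nor methylated arrays of CREB1 were analysed here. The labels tie replicate arrays to no separate batch of protein, so each p-value rests on array-to-array spread alone, which may be technical.

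bZIP proteins bind DNA as dimers through a continuous basic helix, and each monomer reads one side of a short site whose centre is often a CG. CREB1 is the founding member of the family that binds the cAMP response element (CRE), CEBPB binds C/EBP sites, and the PAR (proline and acidic amino acid-rich) bZIP proteins bind another palindrome. The exchanged residue lies in the basic region that touches DNA, where CREB1 has alanine and CEBPB has valine. Methylation adds a methyl group to the cytosines of the CG in the major groove, which is the face the basic helix reads.

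The sites the results turn on join the CRE, C/EBP and PAR half-sites around a CG, and are shown with the CG in capitals, 5′ to 3′.
CRE palindrome: tgaCGtca
C/EBP palindrome: ttgCGcaa
PAR palindrome: ttaCGtaa
CRE with C/EBP half-site: tgaCGcaa
CRE with PAR half-site: tgaCGtaa
C/EBP with PAR half-site: ttgCGtaa
Single 8-mers with other kinds of response, described further on, are shown in the same way. In their labels and in the text below, a methylated or unmethylated protein means the protein on methylated or unmethylated DNA. The proteins themselves were not treated.
CG site with less binding by methylated CEBPB(V285A): cctaCGta
CG site with less binding by methylated CEBPB(V285A), with a second CG: CGtgaCGc
CG site with more binding by methylated CEBPB(V285A): CGcaatca
site without CG, with more binding by methylated CEBPB(V285A): tgatataa
site without CG, with more binding by methylated CREB1(A297V): attacaaa

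Values are the authors' Z-scores of 8-mers, which are on a linear signal scale, so that strong sites reach very high Z. The arrays differed in range. The highest Z was 84.3 and 65.3 on the unmethylated CREB1(A297V) arrays and 237 to 437 on the other 6, and median signal was 2.76 and 1.79 times background on the unmethylated CREB1(A297V) arrays and 2.25 to 5.09 times on the others. Replicates correlated across 8-mers at 0.827 for unmethylated CREB1(A297V) and at 0.961 to 0.975 for the other 3 groups. Differences at the strongest sites move with these ranges, so each was also computed as log2 signal over the array median (log2 units), as log2 Z, as log2 Z after normexp background correction, and after quantile normalization. The methylated CREB1(A297V) arrays carry 0% of their spots at the positions of the other arrays, and array identifiers differ between the unmethylated groups of the 2 proteins. All methylated arrays share an identifier that no unmethylated array has. In both proteins, therefore, methylation state and array identifier cannot be told apart, and every methylation response rests on that contrast. Protein, identifier and spot layout cannot be told apart either.

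Across all 8-mers, responses differed between the mutants for 717 of 32896 (2.18%) in limma's test at an adjusted p below 0.05 (Benjamini-Hochberg over all 8-mers). The difference was higher for CEBPB(V285A) at 115 (0.350%) and lower at 602 (1.83%). The lower calls lay mainly among sequences with a CG: 453 of 12547 8-mers with a CG were lower (3.61%), against 149 of 20349 without (0.732%). The higher calls had the opposite balance, with 24 of the 8-mers with a CG (0.191%) and 91 of those without (0.447%). The share of lower calls grew with the number of CG, from 3.37% of 10762 8-mers with 1 CG and 4.82% of 1702 with 2 CG to 9.64% of 83 with 3 or more. These shares are not matched for unmethylated level, and the matched values given further on did not grow with the number of CG. The median response difference was -0.16 Z over 8-mers with a CG and 0.060 Z over 8-mers without. The number of calls depended on single arrays and on the scale: it was 2753 without replicate 1 and 1453 without replicate 2 of unmethylated CREB1(A297V), 163 and 317 without replicate 1 and 2 of methylated CEBPB(V285A), 238 without replicate 1 of unmethylated CEBPB(V285A), and 203 without replicate 2 of methylated CREB1(A297V). The share of lower calls was larger among 8-mers with a CG under every scale and with each array left out, while the balance of higher to lower calls was not stable: 16.0% of calls were higher on the deposited scale, 43.8% on log2 Z, 43.3% on log2 signal and 73.9% after normexp.

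Each protein's own response shows where these calls came from. For CEBPB(V285A), 591 8-mers fell on methylated DNA (1.80%), 538 of them with a CG, and 380 rose (1.16%), 284 of them without a CG. For CREB1(A297V), 1235 fell (3.75%), 476 with a CG, and 1838 rose (5.59%), 676 with a CG, so gains and losses were less divided by the CG. Among the 453 8-mers with a CG called lower, CEBPB(V285A) itself fell at 289 and CREB1(A297V) itself rose at 134. The median of these 453 went from Z 5.71 to 2.81 in CEBPB(V285A) and from 0.703 to 1.87 in CREB1(A297V). Among the 149 8-mers without a CG called lower, the order was the other way round: CREB1(A297V) rose at 126 and CEBPB(V285A) fell at 16. Their median went from Z 2.90 to 7.58 in CREB1(A297V) and stayed between 2.28 and 2.42 in CEBPB(V285A).

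These 2 kinds of lower call also differed in how they held on other scales. After normexp, 443 of the 453 calls with a CG kept a negative difference and 169 kept the call, against 102 and 14 of the 149 without a CG. Over all 5 scorings, 100 of the 453 (22.1%) and 7 of the 149 (4.70%) were called with the same sign. Whether these shares differ was not tested.

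Of the 8-mers with a CG, 1783 of 12547 lay at or above the 90th percentile of unmethylated CEBPB(V285A), against 1507 of 20349 without. The 8-mers with and without a CG were therefore compared at like unmethylated level in both proteins. A grid with edges at the 50th, 75th, 90th, 95th and 99th percentile of each protein gave 27 bins with at least 10 8-mers of each kind, which held 12444 8-mers with a CG and 20260 without. The CpG gap of an array is the median of the 8-mers with a CG minus that of the 8-mers without, averaged over bins by the number of 8-mers with a CG. For CEBPB(V285A) it was 0.311 and 0.185 Z on the unmethylated arrays and -0.247 and -0.220 on the methylated arrays, so every methylated array lay below every unmethylated one. For CREB1(A297V) it was -0.176 and 0.016 on the unmethylated arrays and -0.216 and -0.268 on the methylated arrays, also without overlap, but by a smaller distance. The gap moved by -0.482 in CEBPB(V285A) and by -0.162 in CREB1(A297V), and the responses differed by -0.32 Z. When the methylation labels were exchanged within each protein, 12 of 36 arrangements gave a value as large (exact permutation test, two-sided p = 0.333). The smallest p this design allows is 0.0556, so no difference could have passed 0.05. The exchange supposes no response in either protein, rather than equal responses. Where both proteins respond in the same direction, as here, its p cannot decide whether the responses differ. The same limit holds for the permutation p-values given below.

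The gap was wider where CEBPB(V285A) bound more strongly. In the 13 bins at or above its 90th percentile, which held 1684 8-mers with a CG and 1456 without, the CpG gap of CEBPB(V285A) went from 1.95 and 1.28 Z on the unmethylated arrays to -0.550 and -0.692 on the methylated arrays. In CREB1(A297V) the same bins gave -0.221 and 0.015 on the unmethylated and -0.0709 and -0.607 on the methylated arrays, and here the groups overlapped. The responses were -2.23 and -0.236 and their difference was -2.00 Z, with 10 of 36 arrangements as large (exact permutation test, two-sided p = 0.278). This restriction was chosen after seeing the data. It selects on the unmethylated CEBPB(V285A) arrays, which also enter the CEBPB(V285A) response, and no such restriction was made on CREB1(A297V). The sizes of the 2 responses in these bins are therefore not compared on like terms. Matching was not complete within bins, since CEBPB(V285A) began above 0 there, and closer edges at the top gave -0.935 Z. On the log2 signal scale the gap in these bins went from 0.127 and 0.0881 to -0.109 and -0.101 in CEBPB(V285A), from 1 side of 0 to the other, against -0.0172 and 0.000727 to -0.0187 and -0.0549 in CREB1(A297V). The difference was negative on all 5 scales, both over all bins and in these bins, with exact permutation p between 0.222 and 0.556.

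**Figure D1:**
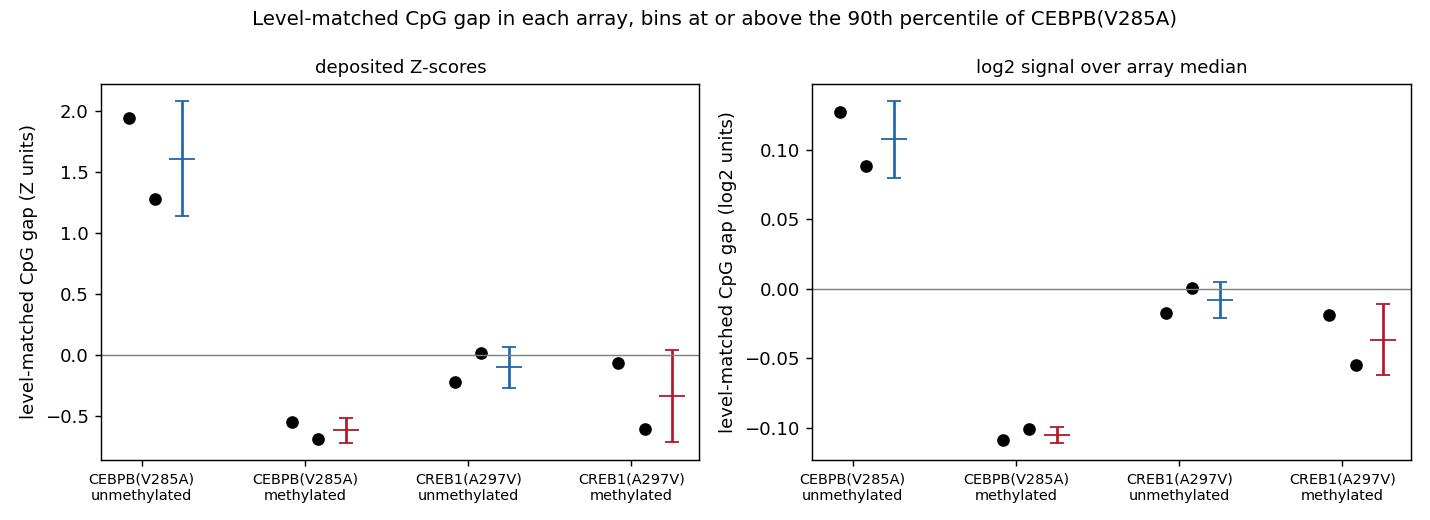
Each black point is the level-matched CpG gap (y axis; Z units left, log2 units right) of 1 array in the bins at or above the 90th percentile of CEBPB(V285A), with the mean and SD of the 2 arrays beside it. The methylated CEBPB(V285A) arrays lie at -0.550 and -0.692 Z, below the unmethylated arrays at 1.95 and 1.28, while the CREB1(A297V) arrays of both states lie between -0.607 and 0.015.

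Bin by bin, the gap of the response difference was below 0 in 23 of 27 bins on the deposited scale, in 24 of 25 on the log2 signal scale and in 23 of 24 after normexp. All 8 bins with CEBPB(V285A) at or above its 95th percentile were below 0, as were all 7 such bins on the log2 signal and normexp scales. The lowest bin held the 8-mers at or above the 99th percentile of both proteins. There the median response difference was -18.9 Z over 89 8-mers with a CG and -3.95 Z over 21 without. The bins share arrays and overlapping 8-mers and are no replicates of each other.

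**Figure D2:**
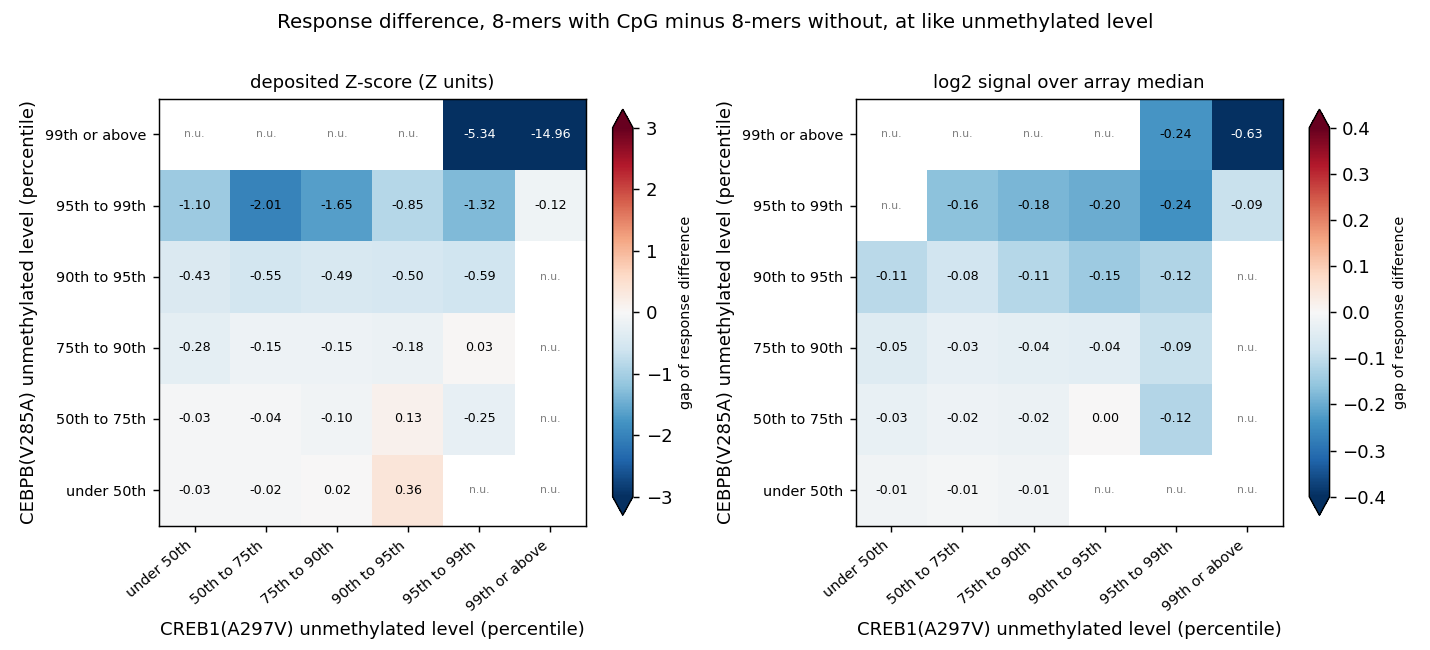
Colour and number give the response difference of 8-mers with a CG minus that of 8-mers without, per bin of unmethylated level of CREB1(A297V) (x axis) and CEBPB(V285A) (y axis), in Z units (left) and log2 units (right); n.u. marks a bin not used. The gap is below 0 in 23 of 27 bins on the left and 24 of 25 on the right, and is most negative in the top right corner.

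The bases beside the CG separated the 8-mers further. At or above the 90th percentile of CEBPB(V285A), each 8-mer with 1 CG was set against the median of the 8-mers without a CG in its own bin. With A before and T after the CG, the arrangement at the centre of the CRE and PAR palindromes, the median excess was -1.62 Z over 423 8-mers, of which 88.7% lay below 0. This excess came to -2.30 Z in CEBPB(V285A) and -0.69 Z in CREB1(A297V), and it was negative on all 5 scales. Of all 553 8-mers with this arrangement, 133 were called lower (24.1%, against 1.83% of all 8-mers) and 0 were called higher. With A before and C after the CG 8.03% of 859 were called lower, and with A on both sides the excess was -1.09 Z over 227 8-mers. With G before and C after the CG, the centre of the C/EBP palindrome, the excess was positive, 1.13 Z over 17 8-mers, of which 23.5% lay below 0. It was positive on all 5 scales, and 1 of the 342 8-mers with this arrangement was called in each direction. By the place of the CG within the 8-mer, the excess was -1.30 Z for a central CG and -0.82 Z for a CG at an end. By the number of CG, it was -1.03 Z with 1 CG, -0.89 Z with 2 and -0.68 Z with 3 or more (23 8-mers). On all 5 scales it lay nearer 0 with more CG in this range of level, unlike the matched values over all levels on the deposited scale.

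The motif lists, each made of every 8-mer that holds a core on either strand, repeat this division by half-site. The CRE core TGACGT had 48 members, of which 21 were called lower and 0 higher, with a median response difference of -22.1 Z against -0.02 Z over all 8-mers. All 48 lay below 0. Their mean level in CEBPB(V285A) was 63.2 and 45.2 Z on unmethylated and 31.7 and 28.8 Z on methylated arrays. In CREB1(A297V) it was 4.59 and 6.37 Z against 16.8 and 16.4 Z. The methylated arrays thus lay below the unmethylated ones in CEBPB(V285A), as on all 5 scales, and above them in CREB1(A297V). The CREB1(A297V) groups overlapped after normexp (3.84 and 4.89 against 4.94 and 4.50) and after quantile normalization (14.2 and 17.7 against 18.8 and 14.4). On the log2 signal scale the median difference was -1.08 and on the normexp scale -2.10, with 45 of 48 below 0. On none of the 5 scales was a member called higher, and 41 were called lower in log2 signal, 11 after normexp and 6 after quantile normalization. The core that joins a CRE with a C/EBP half-site, TGACGC, had 30 of 48 called lower and 0 higher, with a median of -9.64 Z and all 48 below 0. After normexp 18 were called lower and 0 higher. Its mean level went from 26.3 and 19.2 Z to 11.7 and 11.3 Z in CEBPB(V285A), without overlap, and from 0.816 and 2.01 Z to 3.77 and 2.99 Z in CREB1(A297V). The E-box CACGTG, a site of bHLH proteins with the same central 4 bases as the CRE, had 6 of 26 called lower, a median of -2.10 Z and all 26 below 0.

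For the C/EBP and PAR cores the median CEBPB(V285A) response was 0.71 and 0.37 Z, with 9 and 21 of 48 members below 0. For the PAR core it turned to -0.46 on log2 Z, with 33 of 48 below 0. The C/EBP core TTGCGC had 4 of 48 called higher (8-mers called higher made up 0.350% of all) and 0 lower, with a median of 0.47 Z. Its mean level was 3.85 and 3.71 Z on the unmethylated and 5.69 and 6.21 Z on the methylated CEBPB(V285A) arrays, and 0.220 and 0.284 against 0.716 and 0.813 Z in CREB1(A297V). Methylated arrays were the higher ones in both proteins, without overlap. The median stayed positive on all 5 scales. Members called higher numbered 12 in log2 signal, 2 on log2 Z, 2 after normexp and 0 after quantile normalization. The PAR core TTACGT had 6 of 48 called lower and a median of -5.98 Z, made of a CEBPB(V285A) response of 0.37 Z and a CREB1(A297V) response of 4.80 Z. Its direction was not stable: the median was 0.010 after normexp and 2.48 after quantile normalization. The core that joins a C/EBP with a PAR half-site, TTGCGT, had 1 of 48 called higher and a median of 0.02 Z, which turned to -0.23 on log2 Z. A control core outside the bZIP family, the ETS site CCGGAA, had 0 of 48 called in either direction in limma's test on the deposited scale, with a median of 0.31 Z. Its mean level was -0.713 and -0.688 Z on unmethylated CEBPB(V285A) arrays and -0.209 and -0.496 Z on unmethylated CREB1(A297V) arrays. The list thus had little binding to lose, and its lack of calls cannot show how a bound site outside the family would respond. At an unadjusted p below 0.05, 2 of the ETS members were higher and 0 lower, and after normexp 1 was called higher.

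The same half-sites without a CG were read against shares of 0.732% called lower and 0.447% called higher among all 8-mers without a CG. With CA in place of CG, the CRE list had 2 of 46 lower and a median of -0.64 Z. With TG in its place 0 of 46 were lower and 1 was higher. The median was -0.03 Z, a value that changed sign on 3 other scales. On unmethylated CEBPB(V285A) arrays the mean level was 6.68 and 5.63 Z with CA and 4.82 and 4.10 Z with TG. The CRE core with CG stood at 63.2 and 45.2 Z there, so these lists and that core are not compared at like level. The AP-1 core had 1 of 38 lower and a median of -0.55 Z, and the composite C/EBP-ATF core 1 of 38 and -0.31 Z. The list that joins a C/EBP half-site to CAT, TTGCAT, stood on the other side, with 9 of 46 called higher, 0 lower and a median of 1.18 Z. At an unadjusted p below 0.05, 18 of its members were higher and 2 lower. On the other scales 16 were called higher and 1 lower in log2 signal. Only 4 were called higher on log2 Z, 3 after quantile normalization and 1 after normexp, with 0 lower. The PAR core with CA had 0 of 46 called, the C/EBP half-site with A, TTGCAA, 0 of 25, and the C/EBP core with CA 1 of 38, which was higher. At an unadjusted p below 0.05 the PAR core with CA had 3 higher and 5 lower, and the C/EBP half-site with A had 4 lower. The PAR core with CA also depended on the scale. Its median was -0.04 Z on the deposited scale, 1.39 after normexp, with 2 of 46 below 0, and 2.15 after quantile normalization. Members called higher numbered 4 after normexp and 2 after quantile normalization, with 0 lower.

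The response of CEBPB(V285A) varied with the outermost base of the half-site. Lists chosen after seeing the data placed each of the 4 bases before TACGT. With T before it, the PAR half-site, the median CEBPB(V285A) response was 0.37 Z, and the median level went from 18.9 to 21.5 Z. With C, A and G before it the median responses were -5.38, -4.04 and -1.80 Z, from unmethylated levels of 8.69, 7.70 and 3.94 Z. For the response difference, 35, 24 and 12 of 48 8-mers each were called lower, against 6 of 48 with T and 1.83% of all 8-mers. The median response difference did not follow these counts. It was -5.98 Z with T and -5.81, -3.96 and -1.97 Z with C, A and G, and with T its sign changed on other scales, as given above. In log2 signal these CEBPB(V285A) responses were 0.30 with T and -0.42, -0.28 and -0.14 with C, A and G, and after normexp 0.63 with T and -1.74, -1.33 and -0.87 with the others. Before GACGT, by contrast, T gave the CRE core and the lowest median response of the 4 bases, -17.6 Z, against -1.12, -1.81 and -0.78 Z with A, C and G. The PAR core and the CRE core thus had median CEBPB(V285A) responses of opposite sign on 4 of the 5 scales, but not on log2 Z, where both were negative (-0.46 and -4.48).

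**Figure D3:**
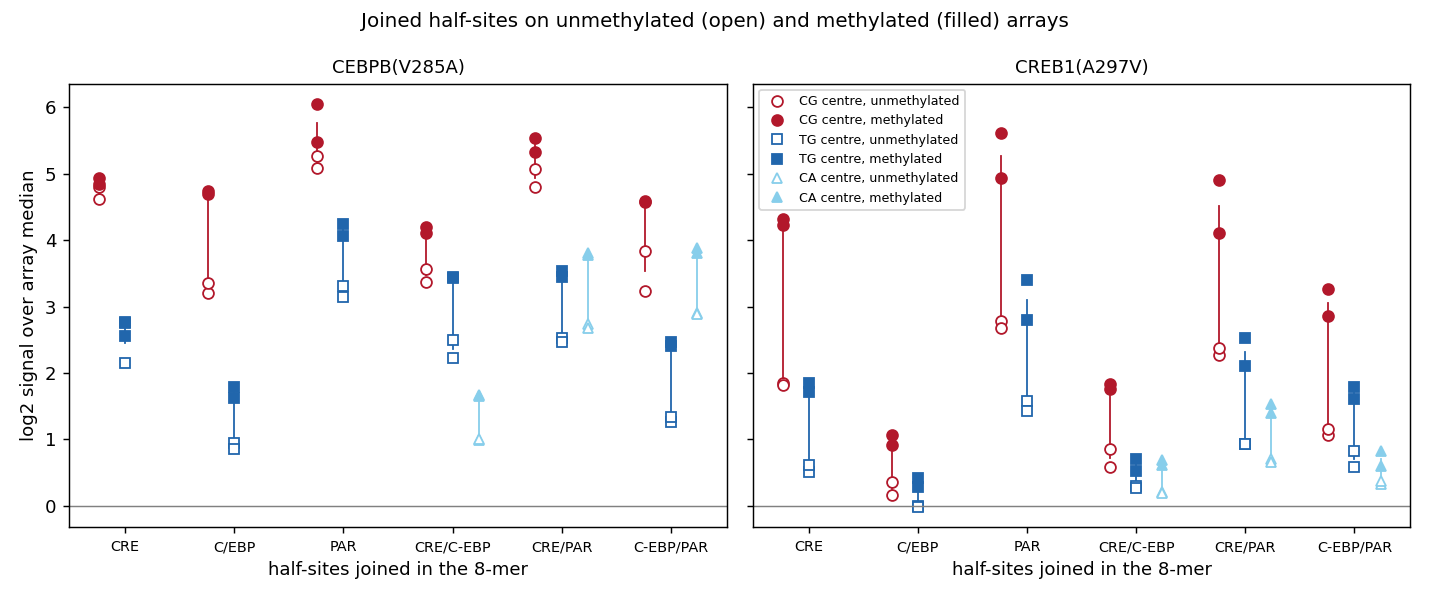
Log2 signal over the array median (y axis) of 8-mers that join CRE, C/EBP and PAR half-sites (x axis) with CG, TG or CA at the centre, on each unmethylated (open) and methylated (filled) array of CEBPB(V285A) (left) and CREB1(A297V) (right). For the CRE palindrome the fold over the array median was 26.3 and 29.6 in CEBPB(V285A) and 3.58 and 19.3 in CREB1(A297V), while the C/EBP palindrome went from 9.73 to 26.4 in CEBPB(V285A) and from 1.19 to 1.98 in CREB1(A297V).

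Among the joined half-sites themselves, the CRE palindrome tgaCGtca gave Z of 213 and 164 on unmethylated and 144 and 177 on methylated CEBPB(V285A) arrays, which overlap. It gave 30.8 and 32.0 on unmethylated and 147 and 154 on methylated CREB1(A297V) arrays, which do not. The response difference was -148 Z. The fit draws the error of a site towards a trend over all sites. Here this gave an SE of 1472, against a residual SD of 21.0. The adjusted p was 0.976 with the trend and 0.0152 without it (both limma), so the call depends on how the error is set. On the log2 signal scale the difference was -2.26, and after normexp it turned to 0.95. The CREB1(A297V) response at this site was 2.43 in log2 signal and -0.16 after normexp.

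The C/EBP palindrome ttgCGcaa moved the other way on the deposited scale. Its Z was 80.3 and 79.6 on unmethylated and 121 and 145 on methylated CEBPB(V285A) arrays, and 1.93 and 2.62 against 7.64 and 7.47 on the CREB1(A297V) arrays, without overlap in either protein. The response difference was 47.9 Z (adjusted p = 0.946 with the trend and 0.0312 without it, both limma). It was 0.70 in log2 signal and 2.26 after normexp, but -0.82 on log2 Z. The PAR palindrome ttaCGtaa, the strongest site of both proteins, gave Z of 307 and 283 against 437 and 265 in CEBPB(V285A) and 84.3 and 65.3 against 237 and 427 in CREB1(A297V). Its response difference of -201 Z was not called (limma, adjusted p = 0.131) and turned to 5.49 after normexp. The sites that mix half-sites gave -6.65 Z (tgaCGcaa), -56.8 Z (tgaCGtaa) and -0.0498 Z (ttgCGtaa). None of these 3 was called with or without the trend, and each changed sign after normexp.

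Forms of these sites with TG or CA at the centre cannot be methylated there, and serve as a comparison within the array, one chosen after seeing the data. CEBPB(V285A) held tgatgcaa at Z 35.3 and 34.9 on unmethylated and 70.6 and 57.8 on methylated arrays, ttgcataa at 51.4 and 44.6 against 87.6 and 77.2, and tgacataa at 41.2 and 40.1 against 71.9 and 67.0, in each case without overlap. Their response differences were 26.9, 32.3 and 22.2 Z, not called with the trend (adjusted p = 0.424, 0.716 and 0.782) and called without it (0.0301, 0.0135 and 0.00141, limma). On log2 Z they were 0.71, -0.19 and -0.74. These forms had the largest response differences of all the TG and CA forms. The others gave 12.7 (tgatgtaa), 2.98 (ttgtgcaa), 1.76 (tgacacaa), 0.330 (ttgtgtaa), -5.28 (ttatgtaa) and -10.1 Z (tgatgtca). None of these others was called with or without the trend. In log2 signal tgatgtca was called lower and ttgtgcaa higher (limma, adjusted p = 0.0265 and 0.0259). Relative to its own TG form in log2 signal, the CRE palindrome stood 2.06 and 2.48 above it on unmethylated and 2.28 and 2.17 on methylated CEBPB(V285A) arrays, and 1.35 and 1.20 against 2.51 and 2.47 on CREB1(A297V) arrays. The difference of these responses was -1.25. It was negative for 5 of the 6 CG sites (-0.86 to -1.64) and 0.27 for the C/EBP palindrome. After normexp 5 of the 6 were positive, so no direction is given for this comparison.

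Single 8-mers were named where the difference was called, kept its sign without each array and the level reached the 99th percentile in at least 1 group. Among those with a CG, 151 qualified as lower. At cctaCGta, Z was 47.5 and 32.6 on unmethylated and 8.62 and 7.26 on methylated CEBPB(V285A) arrays, and between 1.18 and 3.01 on all 4 CREB1(A297V) arrays. The site thus fell in CEBPB(V285A) (response -32.1 ± 3.41 SE) and the groups of CREB1(A297V) overlapped. The response difference was -33.0 ± 4.83 Z (SE; limma, adjusted p = 0.00259), was called without each of the 8 arrays in turn, and was negative and called on all 5 scales. A second site with the same centre, ctaCGtag, gave 39.7 and 20.5 against 1.90 and 6.53 in CEBPB(V285A) and a difference of -29.1 ± 5.27 Z (adjusted p = 0.0101). CGtgaCGc, with 2 CG, had the largest difference of this kind, -37.6 ± 7.69 Z (adjusted p = 0.0188), with Z of 60.5 and 47.0 against 19.1 and 18.3 in CEBPB(V285A) and 0.456 to 4.62 in CREB1(A297V). Its call was lost after normexp (limma, adjusted p = 0.0621) and in the fit of all 10 arrays (0.162), and was kept in 3 of the 8 fits that left out 1 array. CGtcatag, which holds a CRE half-site, fell likewise in CEBPB(V285A), from 40.5 and 31.0 to 11.1 and 15.1 (difference -28.4 ± 4.92 Z, adjusted p = 0.00771). In CREB1(A297V), ctaCGtag lay at -0.203 and 0.016 on unmethylated and 2.82 and 3.51 on methylated arrays, and CGtcatag at 3.28 and 4.98 against 8.51 and 11.2, both without overlap, though neither CREB1(A297V) response was called (limma, adjusted p = 0.616 and 0.315). The call of ctaCGtag was lost without the variance trend (0.0889) and that of CGtcatag after quantile normalization (0.0673).

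The fifth site of this group had another origin. At CGtaatta Z was 13.9 and 11.3 against 19.6 and 12.4 in CEBPB(V285A), which overlap, and rose from 6.36 and 8.28 to 33.8 and 45.7 in CREB1(A297V). Its difference of -29.0 ± 7.18 Z (limma, adjusted p = 0.0471) was not called after normexp or quantile normalization (0.306 and 0.406) or with the replicate number as a block (0.058), and was called in 2 of the 8 fits that left out 1 array. Only 2 8-mers with a CG qualified as higher. CGcaatca, which holds the C/EBP half-site with the CG at its edge, rose in CEBPB(V285A) from 5.81 and 5.34 to 10.0 and 10.4 and lay between 0.727 and 1.73 in CREB1(A297V) (difference 5.03 ± 0.890 Z, adjusted p = 0.00893). At aaCGgggc CREB1(A297V) fell from 4.87 and 3.90 to -0.390 and -0.171, while CEBPB(V285A) stayed between -0.219 and 0.310 (difference 4.37 ± 0.566 Z, adjusted p = 0.00109). Both were called on all 5 scales apart from CGcaatca on log2 Z.

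Of the 8-mers without a CG, 10 qualified as higher, and the 5 with the largest difference lay between 6.63 and 8.84 Z. At tgatataa Z was 9.69 and 11.6 against 21.4 and 18.5 in CEBPB(V285A) and -0.044 to 1.20 in CREB1(A297V), a difference of 8.84 ± 1.71 Z (limma, adjusted p = 0.0144). The others were atgcaata, ttagataa, tcacatca and attgcatc, and each was higher on both methylated CEBPB(V285A) arrays than on both unmethylated ones. All 5 were positive on the 5 scales, but only ttagataa was still called on log2 Z and after normexp (limma, adjusted p = 0.0178 and 0.0241). For the other 4 the adjusted p was 0.156 to 0.378 on log2 Z and 0.0603 to 0.112 after normexp.

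The 73 8-mers without a CG that qualified as lower had larger differences. At attacaaa CREB1(A297V) rose from 11.7 and 16.4 to 56.7 and 77.4 Z, while CEBPB(V285A) went from 4.23 and 5.45 to 5.75 and 8.36, and the difference was -50.8 ± 11.9 Z (limma, adjusted p = 0.0362). The next 4 were attactca, attactaa, atgtgtaa and gtgtgtaa, with -48.2, -46.5, -46.4 and -40.0 Z. All 5 were called in log2 signal (-1.35 to -1.79), and none was called after normexp, where they lay between -0.55 and 1.16 with 2 of them positive. Each was called in 2 to 4 of the 8 fits that left out 1 array.

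**Figure D4:**
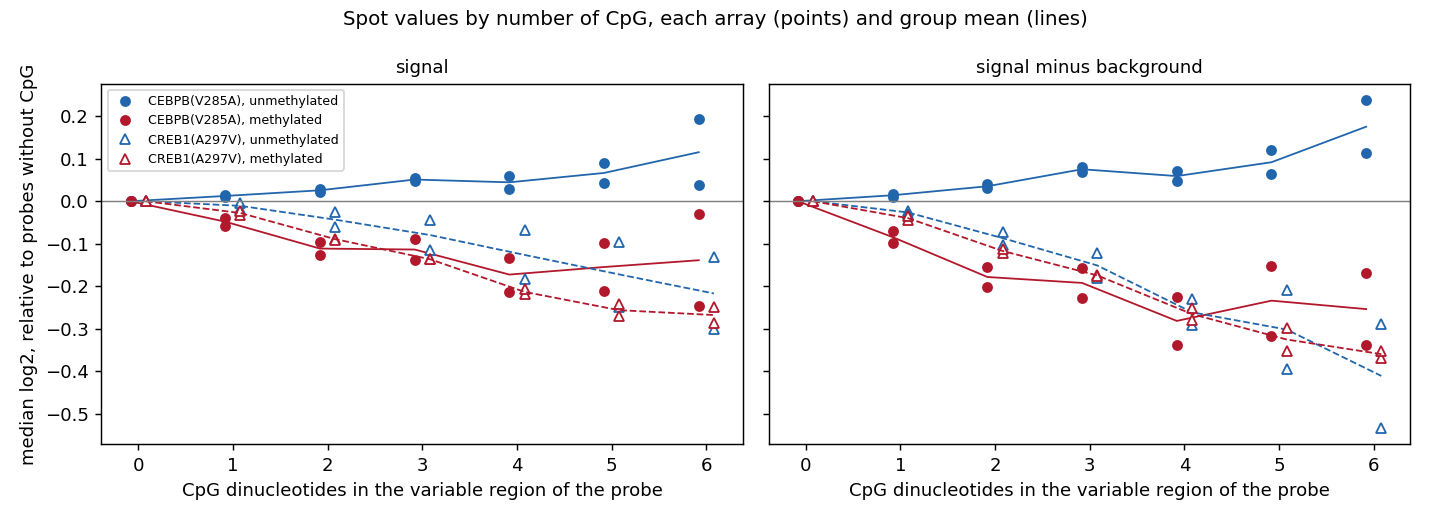
Median log2 spot signal (left) and signal minus background (right), relative to the probes without a CG, by the number of CG in the variable region of a probe (x axis), for each array (points) and group (lines). With 4 CG, unmethylated CEBPB(V285A) arrays lie at 0.0595 and 0.0295 and methylated ones at -0.212 and -0.133 on the left, while CREB1(A297V) arrays lie below 0 in both states.

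The spots themselves, without any 8-mer score, gave the same order. Relative to the 3861 probes without a CG in their variable region, the 4140 probes with 4 CG had a median log2 signal of 0.0595 and 0.0295 on unmethylated and -0.212 and -0.133 on methylated CEBPB(V285A) arrays. On CREB1(A297V) arrays the same probes lay at -0.184 and -0.0686 and at -0.219 and -0.207. The responses were -0.217 and -0.087 and their difference was -0.13. It was -0.044 for probes with 1 CG, -0.091 with 2 and -0.108 with 3, and after subtraction of the local background -0.085, -0.183, -0.244 and -0.337 for 1 to 4 CG. Every probe also carries a linker with 1 CG, so probes without a CG in the variable region were not free of methylation.

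Across 8-mers, the correlation between the responses of the 2 proteins was lower where a CG was present on 4 of the 5 scales. Pearson's r was 0.0711 over 12547 8-mers with a CG and 0.406 over 20349 without (Spearman 0.165 and 0.323), and 0.365 and 0.590 on the log2 signal scale, but after quantile normalization it was 0.0978 with a CG and 0.0571 without. The 8-mers overlap in sequence and probes and are not independent, so r is a description. Among the 1783 8-mers with a CG at or above the 90th percentile of CEBPB(V285A), 75.6% had a CEBPB(V285A) response below 0, against 40.1% of the 1507 without a CG. For CREB1(A297V) the shares in the same 8-mers were 19.7% and 19.0%. With the 8-mers selected anew on the other scale, they were 36.4% and 47.0% after normexp and 31.3% and 38.8% after quantile normalization. The CEBPB(V285A) share stayed larger with a CG on all 5 scales. These 8-mers were not level-matched, and they were selected on the unmethylated CEBPB(V285A) arrays, which enter its response.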

How the data were processed

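The authors deposited an 8-mer matrix, matched to arrays through the sample descriptions, with a score (Z) on a linear signal scale, and per-array tables of median signal and background intensity for 40330 spots. Scanner settings, filters and the steps from spots to Z are not given in the sources used here. Responses were fitted with limma 3.58.1 in R 4.3.3 (lmFit, eBayes with a variance trend) on 8 arrays with a coefficient per group and 4 residual degrees of freedom. All tests are two-sided, and the fit was checked on simulated data. The log2 scores took the median over the 15 to 42 probes of an 8-mer, after subtraction of the local median in a window of 15 by 15 spots; normexp used an offset of 50. Named 8-mers were 6 joined half-sites with their TG and CA forms, and up to 5 called 8-mers per direction, with and without CG, of the largest difference. Members and lists were chosen with earlier results of these data known. Unmethylated CREB1 arrays entered only an alternative fit. The number of arrays limits the precision.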

Additional observations from a re-analysis of the deposited data

Results flagged for a closer look

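The methylation response differed between the 2 proteins at 717 8-mers by limma's test of the difference itself. The 17 8-mers named under the rule for single sites are part of these 717. They were picked by that test and by size, so they add no separate support. Among those with a CG the differences were 5.03 Z (CGcaatca) and 4.37 Z (aaCGgggc) in one direction. In the other they were -37.6 Z (CGtgaCGc), -33.0 Z (cctaCGta), -29.1 Z (ctaCGtag), -29.0 Z (CGtaatta) and -28.4 Z (CGtcatag). Without a CG they were 8.84 Z (tgatataa), 7.98 Z (atgcaata), 6.89 Z (ttagataa), 6.83 Z (tcacatca) and 6.63 Z (attgcatc) in one direction. In the other they were -50.8 Z (attacaaa), -48.2 Z (attactca), -46.5 Z (attactaa), -46.4 Z (atgtgtaa) and -40.0 Z (gtgtgtaa).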

How the results depend on the processing

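The number of 8-mers called was 1798 on log2 Z, 2847 on log2 signal over the array median, 1656 after normexp, 289 after quantile normalization and 439 without the variance trend, and 163 to 2753 when 1 array was left out. With the replicate number as a block it was 820, CGtaatta alone among the 17 named called 8-mers lost its call, and same-numbered arrays did not deviate together in every pair of groups (correlations from -0.553 to 0.164). The level-matched gap of -0.32 Z over all bins stayed negative throughout. It was -0.168 with at least 30 8-mers per bin, -0.162 with an edge at each 10th percentile, -0.155 with 9 edges closer at the top, -0.185 binned by replicate 1 with the response from replicate 2, and -0.566 the other way round. With the replicate block, number 1 alone gave -0.519 and number 2 alone -0.121, and leaving out 1 array gave -0.353 to -0.238. In the bins at or above the 90th percentile the gap of -2.00 Z was -1.48 after quantile normalization, -0.987 with at least 30 per bin, -0.935 with 9 edges, -1.27 and -2.54 with the split replicates, -2.65 and -1.35 for numbers 1 and 2 of the replicate block, and -2.27 to -1.71 without 1 array. The edges closer at the top and this restriction were chosen after seeing the data.

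Several joined half-sites changed sign, and the cause was not tested. After normexp the difference was 0.95 (tgaCGtca), 2.37 (tgaCGcaa), 4.20 (tgaCGtaa), 1.41 (ttgCGtaa), 5.49 (ttaCGtaa) and 3.07 (ttatgtaa). After quantile normalization it was 16.6 (tgaCGcaa), 20.8 (tgaCGtaa), 39.5 (ttgCGtaa), 8.75 (tgatgtca) and 73.2 (ttatgtaa). On log2 Z it was -0.82 (ttgCGcaa), -0.20 (tgacacaa), -3.14 (tgatgtaa), -0.74 (tgacataa) and -0.19 (ttgcataa), and in log2 signal -0.39 (tgatgtaa). Leaving out 1 array gave -21.2 to 7.90 (tgaCGcaa), -27.7 to 27.6 (ttgCGtaa), -2.45 to 3.11 (ttgtgtaa) and -20.6 to 10.0 (ttatgtaa).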
